A study of Drosophila melanogaster with 4 samples.

Results

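The narrow, high-scoring clusters of H3K9acS10P in adult fly heads are 522 enriched regions on the chromosome arms 2L, 3L, 3R and X of Drosophila melanogaster, out of 8976 regions in the list that the authors made for both ChIP replicates together (the combined list). H3K9acS10P is histone H3 with an acetyl group on lysine 9 and a phosphate on serine 10 of the same tail. Members were selected on the authors' own values: a width over 1300 bp and up to 3500 bp, a score of at least 0.9 in the combined list, and at least 1 bp of overlap with a cluster in each replicate's own list. They take up 1.52 Mb of the 97.9 Mb of these 4 arms, on which the combined list holds 7012 clusters. The comparison group is made of the 1276 clusters with the same limits of width that score under 0.9 and are also found in both replicates. A further 2044 clusters of these widths score under 0.9 and are missing from at least 1 replicate list.

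The study mapped the mark by ChIP-seq in nuclei from heads of Oregon-R flies, a wild-type strain, with a new lot of antibody. There are 2 groups, ChIP and input, with 2 samples each, and the inputs carry the same replicate numbers as the ChIP samples. The labels give the stage as mixed adult and name no treatment, and they do not say whether the replicates came from separate fly collections. Flies were grown in population cages and their heads were gathered with sieves, so each sample is a pool of many animals and of all cell types of the head. A score therefore cannot tell a mark carried by many cells from a stronger mark in a few.

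Acetylation of lysine 9 is found on nucleosomes at the start of active genes, where acetyltransferases place it and deacetylases remove it. Serine 10 is phosphorylated along whole chromosomes by Aurora B in dividing cells, and by the kinase JIL-1 in interphase nuclei of flies. JIL-1 acts at transcribed genes and is enriched on the male X. Most cells of the adult head, neurons and glia among them, no longer divide. A region of a few nucleosomes to a few kilobases is the usual extent of an active-promoter mark. No gene annotation of genome release r5, on which all positions are given, was used here, so members are named by arm and position and no sequence is printed.

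The members' scores in the combined list ran from 0.90 to 1.92 with a median of 1.10 (interquartile range 1.00 to 1.27), and 35 of them exceeded 1.5. The clusters just inside the threshold lay on 3L, at 317408 to 320788 (score 0.9004) and at 9479142 to 9482286 (0.902). Just outside it stood clusters on 2L at 740210 to 742712 and on 3R at 20955618 to 20958802, both with a score of 0.899. There is no gap in the scores at the threshold: 142 members scored below 1.0, and 165 clusters of the same widths found in both replicates scored between 0.8 and 0.9. The overlap criterion left out no cluster, since all 522 clusters with these widths and scores had a partner in both replicate lists. Among clusters of the same widths that were missing from at least 1 replicate, the highest score was 0.86.

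Although the lower limit of width was 1300 bp, the narrowest member measured 2087 bp. Of 891 clusters up to 1700 bp wide none reached 0.9, and of 873 clusters between 1700 and 2100 bp only 1 did. The share rose with width, to 11.99% of 834 clusters of up to 2500 bp, 26.0% of 523 clusters of up to 2900 bp, 37.5% of 485 clusters of up to 3300 bp and 43.6% of 236 clusters of up to 3500 bp, each group starting where the one before it ended. The members had a median width of 2979 bp (interquartile range 2554 to 3252 bp), against 2429 bp in the comparison group. Among the members themselves width and score were only loosely related (Spearman's rho = 0.21 over 522 clusters, which come from the same libraries and are not independent). Width and score come from the same reads and both entered the rule, so these values describe the members and nothing is tested with them.

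**Figure D1:**
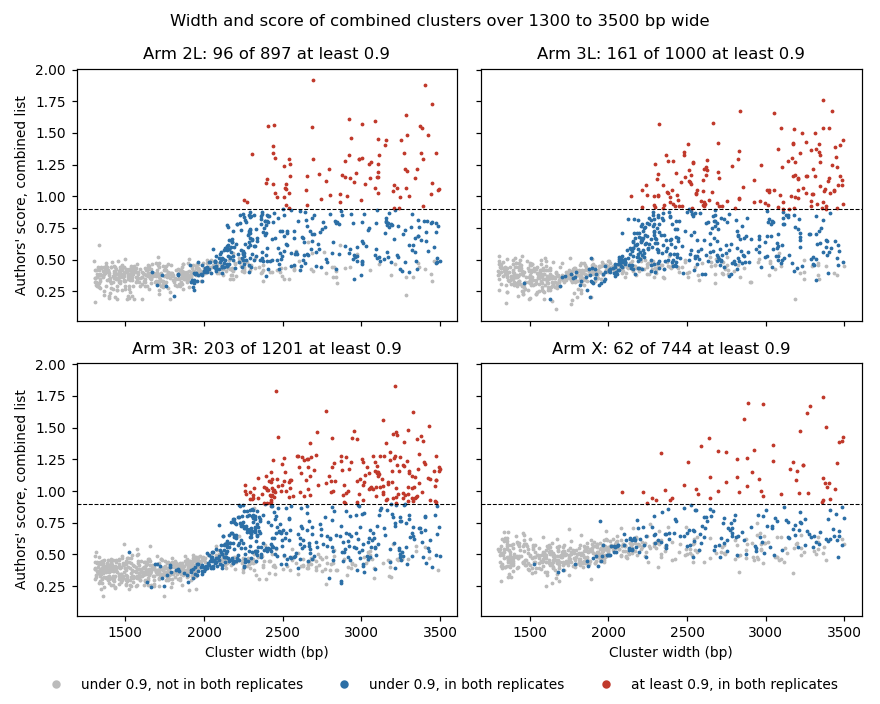
Width in bp (x axis) and the authors' score (y axis) of combined clusters over 1300 to 3500 bp wide on 4 arms, 1 point per cluster, with the 0.9 threshold dashed. The members (red) begin near 2100 bp, and the clusters missing from at least 1 replicate (grey) all lie under 0.9.

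The highest-scoring member on 2L, at 19007514 to 19010204, had a combined score of 1.92, with 1.89 in replicate 1 and 2.05 in replicate 2. Next on that arm was the cluster at 10199480 to 10202880, with a combined score of 1.88 and replicate scores of 1.92 and 1.95. The cluster at 9965444 to 9968892 had replicate scores of 1.80 and 1.78. All 3 had another cluster close by, at gaps of 793, 223 and 891 bp. The other top members of 2L, at 3455640 to 3458922 and at 22689098 to 22692018, had replicate scores between 1.61 and 1.69. The last of them stood 42973 bp from its nearest neighbour.

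On 3L the top member, at 1616540 to 1619904, had scores of 1.91 (replicate 1) and 1.65 (replicate 2). Here the replicates differed more than in the top member of 2L. The cluster at 24529300 to 24532136 scored 1.68 and 1.73 in replicates 1 and 2, and lies close to the proximal end of the assembled arm with a stretch of 303503 bp without any combined cluster on its distal side. The clusters at 17521188 to 17524610 (1.71 and 1.75) and at 4261032 to 4264082 (1.69 and 1.68) followed. The fifth, at 23730146 to 23732810, had 1.48 and 1.74, and 287745 bp on its proximal side held no combined cluster. Of the 161 members on 3L, 2 lay in the Mb nearest the centromere.

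On 3R the highest member was at 10714478 to 10717690, with 1.77 in replicate 1 and 1.94 in replicate 2. The cluster at 13622472 to 13624926 was only 2455 bp wide and scored 1.71 and 1.88. The cluster at 25990288 to 25993062 scored 1.60 and 1.72. In the cluster at 25044008 to 25047336 both replicate scores, 1.91 and 1.80, were above the combined score of 1.63, and both replicate clusters (2379 and 2434 bp) were narrower than the combined one (3329 bp). The fifth, at 14079710 to 14082846, scored 1.72 and 1.44.

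On X the highest member, at 6864996 to 6868358, had scores of 1.78 (replicate 1) and 1.85 (replicate 2). Clusters at 21493224 to 21496110 (1.83 and 1.73), at 22404398 to 22407382 (1.55 and 1.87) and at 21480940 to 21484218 (1.84 and 1.61) came next. These 3 lie in the proximal part of the arm, and the first and last of them are the only top members of X on which replicate 1 scored higher. The fifth, at 15031050 to 15034314, scored 1.55 and 1.76. It was also the most isolated member of X, 20487 bp from its nearest neighbour.

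Replicate scores of the members followed each other with wide scatter. The median score was 1.17 in replicate 1 (0.63 to 1.92) and 1.12 in replicate 2 (0.73 to 2.05), and 36.2% of the members scored higher in replicate 2. Spearman's rho between the replicates was 0.54 over all 522 members, which share their libraries, and was 0.59 on 2L, 0.60 on 3L, 0.42 on 3R and 0.61 on X. The replicate scores come from the same reads as the combined score that chose the members, so they are a description. In replicate 1 13 members scored under 0.9 and in replicate 2 52 did, while none was under 0.9 in both. The largest difference in favour of replicate 2 was on 3R at 11310916 to 11313234, with 0.63 in replicate 1 and 1.45 in replicate 2. In the other direction it was on 3L at 8102582 to 8105060, with 1.63 and 1.03. The latter pair was chosen after their values were seen.

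**Figure D2:**
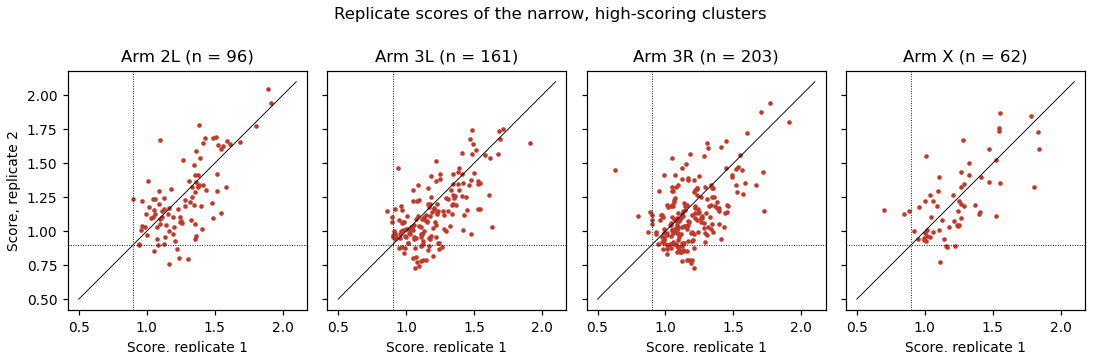
Score in replicate 1 (x axis) against score in replicate 2 (y axis) for each member, by arm, with the line of equality and dotted lines at 0.9. Points fall on both sides of the line on every arm, with 36.2% above it.

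The members were spread unevenly over the arms. In the combined list there were 203 on 3R, 161 on 3L, 96 on 2L and 62 on X, or 7.27, 6.56, 4.17 and 2.77 per Mb. As a share of all combined clusters of the same widths, they made up 8.33% on X (exact 95% interval 6.45 to 10.6%), 10.7% on 2L (8.76 to 12.9%), 16.1% on 3L (13.9 to 18.5%) and 16.9% on 3R (14.8 to 19.1%). Such intervals cover counting error only, and clusters are not independent. The difference between X and the 3 autosomal arms 2L, 3L and 3R together (14.8%) was -6.51 percentage points. Here and below, the autosomal arms are these 3 only. An exact sign-flip permutation over 2 ChIP replicates gives no two-sided p below 0.5, and the differences described here are given without a test.

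This low place of X belonged to the combined list. When the same limits of width and score were applied to each replicate's own list, 978 clusters met them in replicate 1 and 940 in replicate 2. On X they made up 27.4% of the clusters of these widths in replicate 1, against 27.6% on the 3 autosomal arms. In replicate 2 the shares were 30.6% on X and 25.1% on the autosomal arms. The difference, X minus autosomal arms, was thus -0.161 points in replicate 1 and 5.53 points in replicate 2 (mean 2.69 ± 4.03, SD, n = 2). Scores in the replicate lists run higher than in the combined list, so a threshold that takes the same 13.6% of clusters in each list was also tried after the data were seen (1.11 in replicate 1, 1.08 in replicate 2). X then held 12.8% against 13.8% in replicate 1 and 14.9% against 13.3% in replicate 2. Among combined clusters found in both replicates, the share on X was 26.6%, between those of 2L (22.3%) and 3L (30.6%).

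The narrow, high-scoring clusters that each replicate found on X lay for the most part inside wider clusters of the combined list. Of 214 such clusters of replicate 1 on X, 58 (27.1%) lay in a member, 92 (43.0%) in a combined cluster wider than 3500 bp that scored at least 0.9, and 37 (17.3%) in a wider one that scored less. In replicate 2 the numbers on X were 56 (26.8%), 75 (35.9%) and 44 (21.1%) of 209. On 3R, by contrast, 193 of 322 (59.9%) in replicate 1 and 177 of 306 (57.8%) in replicate 2 lay in a member. Combined clusters of any width that scored at least 0.9 and were found in both replicates numbered 18.2 per Mb on X and 14.8 per Mb on the autosomal arms. Only 62 of the 407 on X (15.2%, exact 95% interval 11.9 to 19.1%) were narrow enough to be members, against 460 of 1120 (41.1%, 38.2 to 44.0%) on the autosomal arms. Their median width was 6873 bp on X and 3827 bp on the autosomal arms.

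**Figure D3:**
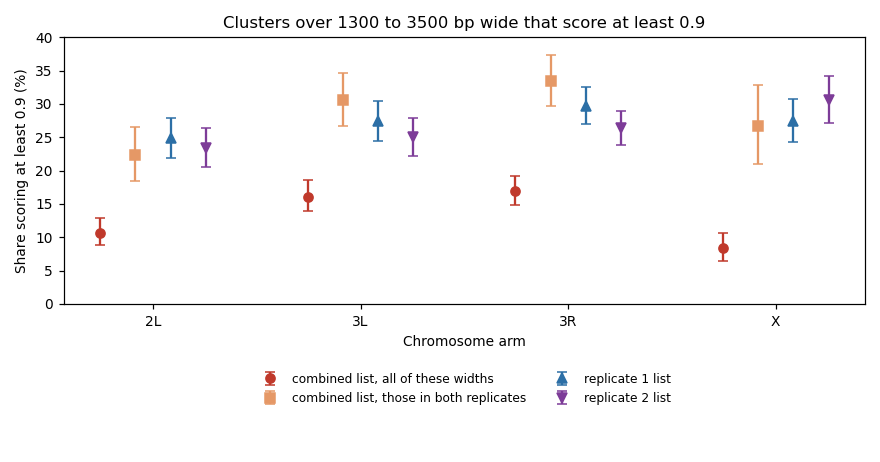
Share in percent (y axis) of clusters over 1300 to 3500 bp wide that score at least 0.9, by arm (x axis), for the combined list with 2 denominators and for each replicate list; bars are exact 95% binomial intervals. X is lowest, at 8.33%, when all combined clusters of these widths are counted, and highest among the arms, at 30.6%, in replicate 2's own list.

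Along each arm the members were found from end to end. On the 4 arms together 36.0% lay in the distal, 31.6% in the middle and 32.4% in the proximal of 3 stretches of equal length, and the comparison group had 32.6%, 34.9% and 32.5%. On X the proximal stretch held 26 of 62 members (41.9%, exact 95% interval 29.5 to 55.2%) and 52 of 171 comparison clusters (30.4%, 23.6 to 37.9%), and these intervals overlap. The Mb nearest the centromere held 19 members (3.64%) and 30 comparison clusters (2.35%), but the arms disagreed. The members' share was higher on 2L (5.21% against 0.898%), 3L (1.24% against 0.546%) and X (8.06% against 2.34%). It was lower on 3R (3.45% against 5.19%). These shares rest on 2 to 7 members per arm. In full windows of 1 Mb the median was 4 members on 2L, 7 on 3L, 6 on 3R and 3 on X. The fullest was on 3R from 5 to 6 Mb, with 17 members. Windows without a member numbered 1 on 2L and 2 on X, and there was none on 3L or 3R.

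The replicates placed the edges of a member close together. Edges come from the same reads as the score that chose the members, so their distances are a description. For each cluster, the edge distance is the mean of the distances in bp between the replicates' starts and between their ends. Its median was 96.3 bp (interquartile range 50.6 to 154 bp) in the members and 150 bp (85.4 to 287 bp) in the comparison group, a difference of -54.0 bp. The members' median was lower on each of the 4 arms, with differences of -59.8 bp on 2L, -61.3 bp on 3L, -39.0 bp on 3R and -83.5 bp on X (SD over arms 18.2 bp). Wider clusters had larger edge distances, and with the comparison clusters weighted to the members' widths in groups of 200 bp their median was 195 bp. Starts and ends behaved alike, with medians of 70.5 and 67.5 bp in the members and 122 and 119 bp in the comparison group. The replicate clusters shared a median of 93.3% of their joint length in the members and 86.4% in the comparison group. Edges lay at most 100 bp apart in 270 members (51.7%) and in 411 comparison clusters (32.2%).

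Without weighting by width, edge distance fell with score and then levelled off below the threshold. Among clusters of the same widths found in both replicates, the median was 196 bp at scores under 0.5, 191 bp at 0.5 to 0.6, 139 bp at 0.6 to 0.7, 115 bp at 0.7 to 0.8 and 89.5 bp at 0.8 to 0.9. From there on it stayed between 82.0 and 113 bp in steps up to the highest scores. Median width also differed between these steps, with 2133 bp under 0.5, 2555 bp at 0.8 to 0.9 and 2806 to 3181 bp above the threshold. Whether the fall levels off among clusters of equal width was not tested. Close edges were no property of the members alone, as the narrower clusters that scored 0.8 to 0.9 had them too. The share found in both replicates rose over the same range, from 18.1% of 2082 clusters under 0.5 to 99.4% of 166 clusters at 0.8 to 0.9.

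**Figure D4:**
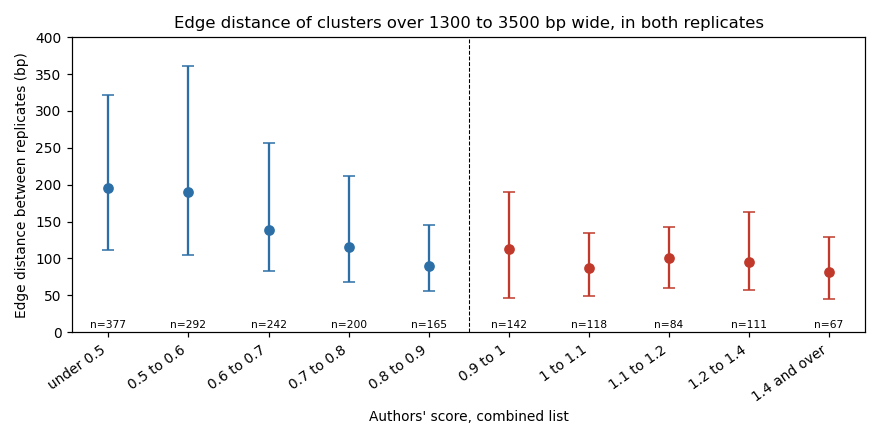
Median edge distance between the replicates in bp (y axis; bars span the interquartile range) by step of score (x axis) for clusters over 1300 to 3500 bp wide found in both replicates; n is the number of clusters and the dashed line marks 0.9. The medians fall from 196 bp to 89.5 bp below the threshold and lie between 82.0 and 113 bp above it. Steps are not weighted by width, and clusters above the threshold are wider.

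On X the members' edges agreed less closely than on the autosomal arms, with a median edge distance of 129 bp, against 86.8 bp on 2L, 86.5 bp on 3L and 104 bp on 3R. The comparison group also had its largest median on X, 213 bp, against 143 to 148 bp elsewhere. The member with the closest edges was on 2L at 9911268 to 9914218, where the starts coincided and the ends were 2 bp apart. The largest distance belonged to a member on 3R at 1196656 to 1199036, where replicate 1 had a cluster of 2328 bp and replicate 2 one of 7669 bp. Both were chosen after their values were seen. Edges lay over 500 bp apart in 9 members, and in 7 of these at least 1 replicate cluster was wider than 3500 bp. A single cluster in each replicate stood behind 519 of the 522 members, though adjacent members could share a replicate cluster. On 3R the members at 5584456 to 5586950 and at 5587170 to 5590160 had the same replicate 1 cluster of 5629 bp. No member was narrower than both of its replicate clusters, and 419 were wider than both.

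A neighbouring cluster was usually near. The median gap from a member to the nearest other combined cluster was 1438 bp (interquartile range 561 to 3470 bp), and 438 members (83.9%) had a neighbour within 5 kb. In the comparison group the median was 1597 bp (519 to 4065 bp) and the share 79.5%. The gap differed by -22.0 bp on 2L, -115 bp on 3L, -356 bp on 3R and was positive, 75 bp, on X, so that the arms disagree in sign. With widths weighted the gap was 31.0 bp longer in the members, and their excess in the share within 5 kb went from 4.36 to 2.11 percentage points. Within the combined list, the members were therefore not shown to lie nearer to their neighbours.

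In the replicate lists the members' gaps were shorter. A combined cluster missing from a replicate list cannot count as a neighbour there. The nearest combined neighbour was found in both replicates for 80.3% of the members and 58.2% of the comparison clusters. These gaps therefore do not show that members lie nearer to other combined clusters. The replicate 1 clusters of the members had a median gap of 1979 bp to the next cluster of that list, against 3452 bp in the comparison group. In replicate 2 the medians were 2145 and 3415 bp. The difference was -1372 ± 144 bp (SD, n = 2), and it was -1316 and -1079 bp with widths weighted. The share with a neighbour within 5 kb in the same list was 15.8 points higher for the members in replicate 1 and 14.1 points higher in replicate 2. Counting as neighbours only combined clusters found in both replicates gave 1728 bp for the members and 3445 bp for the comparison group. Short gaps were not particular to the members. Combined clusters over 3500 bp with a combined score of at least 0.9, found in both replicates, had short gaps too. Their medians were 1641 bp in the replicate 1 list and 1759 bp in the replicate 2 list.

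The kind of neighbour differed, which is not a separate result from the gaps in the replicate lists. The nearest neighbour was itself found in both replicates for 419 members (80.3%, exact 95% interval 76.6 to 83.6%) and for 742 comparison clusters (58.2%, 55.4 to 60.9%). The share was higher for members on each arm, with 71.9% against 61.1% on 2L, 80.1% against 60.4% on 3L, 83.7% against 59.0% on 3R and 82.3% against 45.6% on X. The nearest neighbour scored at least 0.9 for 43.7% of the members and 23.9% of the comparison clusters. Its median score was 0.86 beside a member and 0.55 beside a comparison cluster, and weighting by width left these at 0.86 and 0.55. It was wider than 3500 bp in 42.7% and 30.3%. Combined clusters wider than 3500 bp that scored at least 0.9 and were found in both replicates came near the members. Their nearest neighbour was found in both replicates in 71.6%, scored at least 0.9 in 38.8% and was wider than 3500 bp in 42.6%. These traits were thus not particular to the members. On 2L the contrast in score was smallest, with 31.3% of the members and 25.1% of the comparison clusters beside a neighbour of at least 0.9. The scores of a cluster and of its neighbours come from the same libraries.

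**Figure D5:**
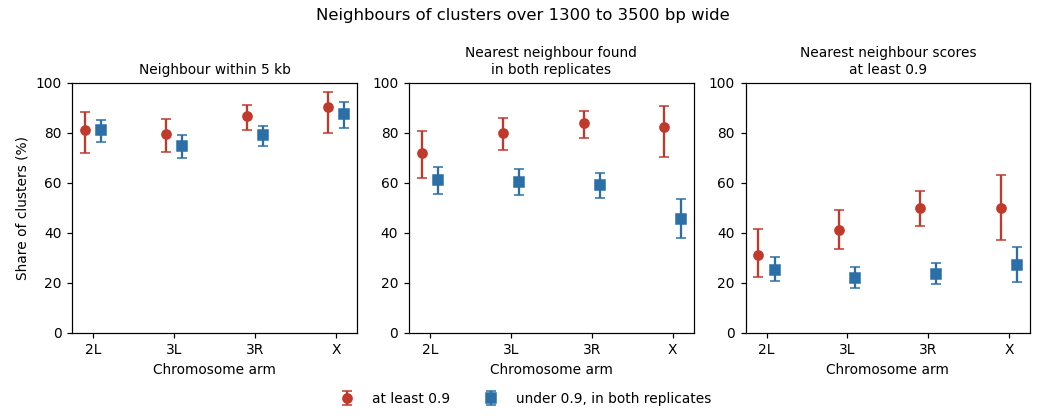
Share of clusters in percent (y axis) with a neighbour within 5 kb, with a nearest neighbour found in both replicates, and with a nearest neighbour that scores at least 0.9, by arm (x axis); bars are exact 95% binomial intervals. Members (red) and comparison clusters (blue) are close in the first panel, and members are higher on each arm in the other panels.

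The nearest neighbour was another member in 97 cases (18.6%), and in 9 of 62 on X. It was a member for 112 comparison clusters (8.78%). Among combined clusters wider than 3500 bp that scored at least 0.9 and were found in both replicates, the share was 11.9%. Members that followed each other with no other combined cluster between them made up 36.5% of those on 3R, 26.1% on 3L, 24.2% on X and 21.9% on 2L. Members were 203 of the 2120 combined clusters on 3R, 161 of 1751 on 3L, 62 of 1570 on X and 96 of 1571 on 2L. Whether such runs exceed what these counts would give was not tested. The longest such run had 5 members on 3R, from 16401440 to 16420446, and was chosen after its values were seen. Their combined scores were, in order along the arm, 1.19, 1.03, 1.10, 1.11 and 1.10. Replicate 1 scored them 0.99, 1.02, 1.09, 1.29 and 1.13, and replicate 2 scored them 1.41, 1.18, 1.13, 0.98 and 1.15. The replicates thus ranked these members differently. On X a run of 4 members lay from 20051378 to 20068416, with 33355 bp free of combined clusters before it and 35457 bp after it. Their scores in replicate 1 were 1.25, 1.29, 1.04 and 0.70, and in replicate 2 they were 1.23, 1.19, 1.27 and 1.16.

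A few members stood alone. No neighbour lay within 20 kb of 12 members (2.30%) and of 43 comparison clusters (3.37%). The most isolated member of 2L, at 22816454 to 22819542, was 54059 bp from its nearest neighbour and had replicate scores of 1.59 and 1.66. On 3L it was the cluster at 23198140 to 23201310, 53557 bp from its neighbour, with 1.08 and 1.34. Both lie in the proximal part of their arm. On 3R it was the cluster at 9134258 to 9137062, with 35811 bp and scores of 1.24 and 1.14. The edges of these 3 were 16.0, 38.5 and 14.5 bp apart between the replicates, all below the members' median of 96.3 bp. The most isolated member of X, at 15031050 to 15034314, had edges 117 bp apart. Whether edge distance is related to isolation was not tested.

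The narrowest member of all was on X at 13071250 to 13073336, with 2087 bp and scores of 1.16 in replicate 1 and 0.88 in replicate 2. The narrowest on the other arms measured 2147 bp on 3L (5785986 to 5788132), 2255 bp on 2L (19185194 to 19187448) and 2259 bp on 3R (26252496 to 26254754). Their scores were 0.97 and 1.06 on 3L, 1.00 and 0.97 on 2L and 1.17 and 0.93 on 3R, in replicates 1 and 2. Their combined scores, 0.99 on X, 1.00 on 3L, 0.97 on 2L and 1.04 on 3R, were all below the median of the members on the same arm (1.10, 1.09, 1.16 and 1.09 in that order).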

How the data were processed

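The submitters' processing notes name Bowtie 0.12.7 as a tool, and coordinates are on FlyBase release r5, per the file headers. The authors deposited regions of significant enrichment with 1 score each, for each ChIP replicate (6365 and 6419 clusters) and for the replicate set (8976). What program made the calls, at which threshold, on what scale it scored and how it joined the replicates is not stated in the labels or headers, so scores are compared as differences and ranks. Sequencing depth is unknown. The narrowest cluster is 1001 bp in the combined list and over 1300 bp in the replicate lists. Overlap meant at least 1 bp, and the replicate cluster with the largest overlap gave a member's replicate values. Gaps count bases between clusters. Computations used Python 3.11.15, numpy 2.4.6, pandas 2.3.3 and scipy 1.17.1, and the overlap, gap and weighting functions were tested on simulated lists. Named regions are the 5 highest-scoring, the narrowest and the most isolated member per arm, and the 2 clusters on either side of the threshold. Members, lists and comparisons were chosen with earlier results of these data known. Clusters on other arms and scaffolds were left out.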

Additional observations from a re-analysis of the deposited data

How the results depend on the processing

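No paired analysis was possible because the comparisons come from no test and the inputs, whose numbers match those of the ChIP samples, enter no comparison here. Differences within each replicate list are given as values. Thresholds of 1.0 and 0.8 gave 380 and 687 members, and 50% reciprocal overlap gave 519. Leaving either replicate out of the overlap criterion kept 522, though the combined list itself still rests on both. Widths over 1300 to 2500 bp left 101 members, and the replicate 1 and 2 lists gave 978 and 940. The difference between X and the autosomal arms in the share of at least 0.9 was -2.43 points at widths up to 2500 bp and -0.161 in the replicate 1 list (-1.01 at equal share), and it turned to 5.53 in the replicate 2 list (1.66 at equal share). The difference in median gap was -366 bp at a threshold of 1.0, -498 bp at widths up to 2500 bp, -1474 and -1270 bp in the replicate 1 and 2 lists, -1717 bp to neighbours found in both replicates, and 31.0 bp with widths weighted. The difference in the share with a neighbour within 5 kb (4.36 points) was 5.28 to 5.98 points when 1 replicate was left out of the overlap criterion, 6.44 against all clusters of these widths under 0.9, 2.15 points at a distance of 10 kb, 2.11 with widths weighted, and 15.8 and 14.1 points in the replicate 1 and 2 lists. The difference in edge distance was -98.3 bp with widths weighted. Changes in edge distance were set against the spread over arms, the others against the spread between replicates. The cause was not tested for any of these changes. Counts in the replicate lists, equal shares, the denominator found in both replicates, width-weighted gaps and the 5-kb shares with widths weighted, in the replicate lists and against all clusters under 0.9 were added after the data were seen.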

Other observations

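Some combined clusters that are no members, being narrower or off the 4 arms, scored above every member and had no partner in either replicate list. The highest score, 3.91, belonged to a cluster of 1995 bp on scaffold 2RHet, at 1013128 to 1015122. A cluster on scaffold U, at 7531000 to 7533130, scored 2.70 and had a partner in the replicate 2 list alone. On 2L the cluster at 12894012 to 12895012, of 1001 bp, scored 3.26, and on X the cluster at 196506 to 197544, of 1039 bp, scored 2.45, where the highest member scored 1.92. The cluster at 1882670 to 1883672 on scaffold 3LHet, of 1003 bp, had the same score of 2.45 as the one on X. Other clusters that outscored every member were found in both replicates. A wider cluster on 2L, of 4699 bp at 8040254 to 8044952, scored 2.18, with 2.15 and 2.24 in replicates 1 and 2. On scaffold 3LHet the cluster at 458626 to 461590 scored 1.97, with 1.84 and 2.14. Of 1061 combined clusters of at most 1300 bp on the 4 arms, 4 scored at least 0.9. None of the 1061 was found in both replicates, and 75 had a partner in at least 1 replicate list. The replicate lists hold no cluster of at most 1300 bp, so a missing partner at these widths cannot show that a cluster was not reproduced. The other high scorers among the 4 were 22383894 to 22384920 of 3R (1.07) and 902380 to 903520 of X (0.94). These clusters were chosen after their values were seen.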
